A study of Komagataella pastoris with 4 samples.

Results

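Fungal adhesins are cell wall proteins that bind sugars or proteins on other cells and surfaces, and flocculins are the adhesins that make yeast cells clump. In Saccharomyces cerevisiae the flocculin Flo1 binds mannose chains on neighbouring cells through a lectin-like head. Its gene and its relatives lie near chromosome ends, are mostly silent in laboratory strains, and are switched by chromatin complexes that include the Tup1-Cyc8 corepressor, Swi/Snf and the acetyltransferase complex SAGA. The GLEYA domain is a carbohydrate-binding fold of the same class of fungal surface proteins.

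The adhesin and flocculin genes were 9 of the 5427 rows of a count table from the methylotrophic yeast Pichia pastoris (labelled Komagataella pastoris), and were chosen by the words adhesin or floccul in the product description. All 9 had a mean of at least 20 counts and were among the 5420 rows compared. No measured value entered that rule, but the family was picked with its behaviour in these libraries already known, so every value below is a description and none was tested. By description, 5 rows contained a GLEYA adhesin domain (gene1452, gene1655, gene4346, gene5420 and gene5425), 3 were called zonadhesin (gene2042, gene4334 and gene4994), and 1 was a lectin-like protein similar to Flo1 and thought to act in flocculation (gene1454). Zonadhesin is the name of a mammalian sperm surface protein, and the table does not say on which likeness those 3 names rest. The table gave no coordinates or gene lengths, and none of its locus tags or protein accessions matched the reference gene table, so no sequences are shown.

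RNA was sequenced from 4 strains kept 14 h in methanol minimal medium, to find targets of the histone acetyltransferase Gcn5. They were deletion mutants of Gcn5, of Gal83, which is a beta-subunit in the complex of the Snf1 kinase, and of Mxr1, a zinc-finger activator of methanol genes, and the wild type GS115. All 4 strains were histidine auxotrophs, and the 3 mutants also carried zeocin resistance, which the wild type lacked. Each strain was 1 library, so differences between strains cannot be told apart from differences between single cultures, and no test was possible. Total counts were between 30582006 and 34646983 in the mutants and 48539082 in the wild type. The row taken as Gcn5 (gene3103) had 3 counts in the Gcn5-deletion library against 2570 in the wild type, and the row taken as Gal83 (gene1360) had 8 counts in the Gal83-deletion library against 5215. The descriptions named Mxr1 in 0 rows, so no row could be picked by name, and that mutant was not checked by counts. Its library is called Mxr1-labelled, and directions drawn from it rest on the label.

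Levels are in CPM, each row's counts rescaled to 1 common library total, with the libraries scaled to one another by TMM, the trimmed mean of M-values. They grow with row length, which the table does not give, so a level is read between libraries and not between genes. A member was called higher or lower where scaled counts differed by at least 2-fold and the exact 95% counting interval, given in brackets on the log2 scale, excluded equality. The intervals cover counting error only, not variation between cultures. In bulk RNA, fewer expressing cells and less RNA per cell cannot be told apart.

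The adhesin and flocculin genes did not move as 1 block. In the Gcn5-deletion library 5 of the 9 were called higher than in the wild type and 0 lower, where 4.06% of all rows were higher and 5.04% lower. Of those 5 members, 4 were more than 10-fold higher. Without Gal83, 2 members were higher and 4 lower, where 11.0% of all rows were higher and 10.7% lower. In the Mxr1-labelled library 0 members were higher and 4 lower, where 7.97% of all rows were higher and 10.3% lower. The same 3 rows (gene1655, gene4334 and gene5425) were higher without Gcn5 and lower in both other mutants, while 2 GLEYA rows (gene1452 and gene5420) were called in none of the comparisons with TMM scaling.

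**Figure D1:**
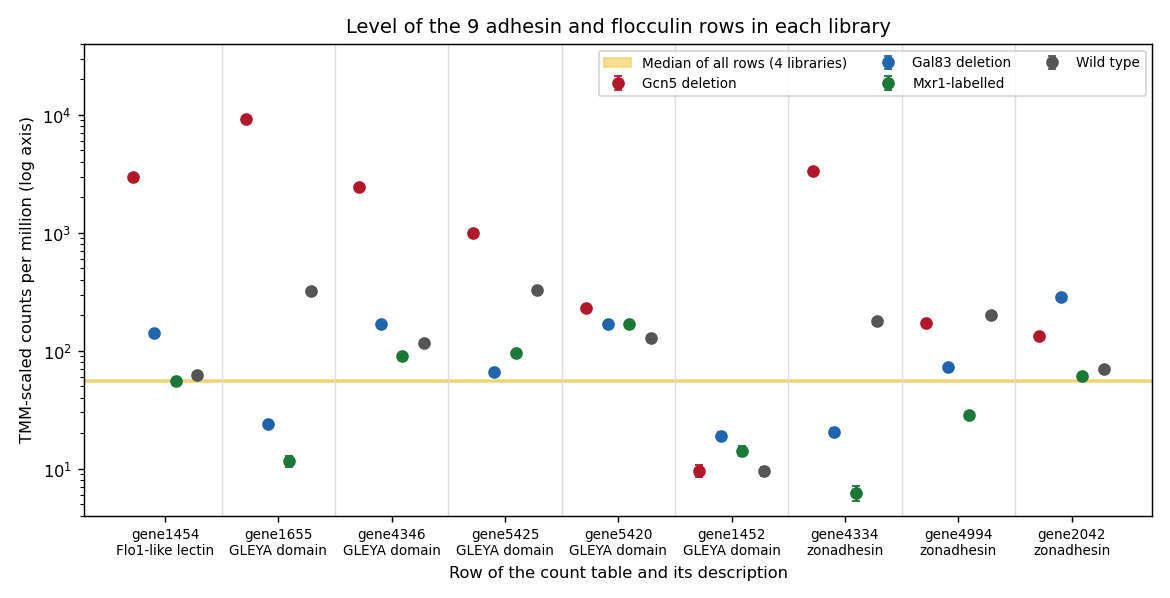
Level of each of the 9 rows in each library, as TMM-scaled CPM on a log axis, with exact Poisson 95% counting intervals as bars (mostly hidden by the points) and the median of all rows as a band. The Gcn5-deletion library (red) stands more than 2-fold above the other 3 for gene1454, gene1655, gene4346, gene5425 and gene4334, and gene1655 reaches 9328 there. That library is also the highest for gene5420, by 1.39-fold over the next.

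The Flo1-like lectin gene1454 had 79503 counts in the Gcn5-deletion library, 5173 in the Gal83-deletion library, 1647 in the Mxr1-labelled library and 3344 in the wild type. Its scaled level was 2960.0 CPM without Gcn5, 140.2 without Gal83, 55.1 in the Mxr1-labelled library and 62.6 in the wild type. Only the Gcn5-deletion library was far from the rest, 21.1-fold above the next level, and the Mxr1-labelled and wild-type levels differed by less than 2-fold. Against the wild type the log2 ratio was 5.56 [5.51 to 5.61] in the Gcn5-deletion library, the highest of all 5420 rows. It was 1.16 [1.10 to 1.23] in the Gal83-deletion library, past the 2-fold size, and -0.18 [-0.27 to -0.10] in the Mxr1-labelled library.

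The GLEYA row gene1655 had 250549 counts in the Gcn5-deletion library, 878 in the Gal83-deletion library, 347 in the Mxr1-labelled library and 17034 in the wild type. Its level was 9328 CPM without Gcn5, 23.8 without Gal83, 11.6 in the Mxr1-labelled library and 319 in the wild type. Each of the 4 levels was more than 2-fold from its neighbour in that order. The highest level was 803-fold above the lowest, the widest span of the 5420 rows with TMM scaling and the second widest with total counts. The log2 ratios to the wild type were 4.87 [4.85 to 4.89] in the Gcn5-deletion library, -3.74 [-3.84 to -3.65] without Gal83 and -4.78 [-4.94 to -4.63] in the Mxr1-labelled library.

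The zonadhesin row gene4334 followed the same order of libraries. It had 89186 counts in the Gcn5-deletion library, 760 in the Gal83-deletion library, 186 in the Mxr1-labelled library and 9581 in the wild type. The 186 counts have an exact Poisson interval of 160.2 to 214.7, the fewest counts of any member in any library, so its low level there lies well outside counting error. Its log2 ratios were 4.21 [4.18 to 4.24] in the Gcn5-deletion library, -3.12 [-3.23 to -3.02] without Gal83 and -4.84 [-5.07 to -4.64] in the Mxr1-labelled library. Its span was 533-fold, the fourth widest of all rows.

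The 2 rows gene1655 and gene4334 were the most alike pair of the 36 that the members form. Their 3 log2 ratios to the wild type differed by 0.53 (root mean square). For each of them the other was the nearest of all rows, and 0 further rows lay within 1 log2 unit. The next nearest were a row named after a venom allergen (gene4283), at 2.58 from gene1655 and 2.17 from gene4334, and one named Smi1 (gene1788), at 2.69 and 2.26. Counts of gene1655 were 2.81 times those of gene4334 in the Gcn5-deletion library, 1.16 times in the Gal83-deletion library, 1.87 times in the Mxr1-labelled library and 1.78 times in the wild type. The pair thus did not keep 1 ratio. Whether reads of one were assigned to the other was not tested, as the table holds no sequence.

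The GLEYA row gene4346 had 65216 counts in the Gcn5-deletion library, 6281 in the Gal83-deletion library, 2682 in the Mxr1-labelled library and 6181 in the wild type. Its level was 2428 CPM without Gcn5, 170.2 without Gal83, 89.8 in the Mxr1-labelled library and 115.7 in the wild type. The 3 libraries that still had Gcn5 lay within 2-fold of one another, and the Gcn5-deletion library was 14.3-fold above the highest of them. The log2 ratios were 4.39 [4.35 to 4.43] in the Gcn5-deletion, 0.56 [0.51 to 0.61] in the Gal83-deletion and -0.37 [-0.43 to -0.30] in the Mxr1-labelled library. Among the members gene4346 was most like gene1454 (0.77 log2 units). Counts of gene1454 were 1.22 times those of gene4346 in the Gcn5-deletion library, 0.824 times in the Gal83-deletion library, 0.614 times in the Mxr1-labelled library and 0.541 times in the wild type.

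The GLEYA row gene5425 had 26542 counts in the Gcn5-deletion library, 2437 in the Gal83-deletion library, 2872 in the Mxr1-labelled library and 17620 in the wild type. It changed direction between strains as gene1655 and gene4334 did, at smaller size. The log2 ratios were 1.58 [1.56 to 1.61] in the Gcn5-deletion library, -2.32 [-2.38 to -2.26] without Gal83 and -1.78 [-1.84 to -1.72] in the Mxr1-labelled library. Unlike those rows it was lowest in the Gal83-deletion library, at 66.0 CPM against 96.1 in the Mxr1-labelled library, which differed by less than 2-fold.

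**Figure D2:**
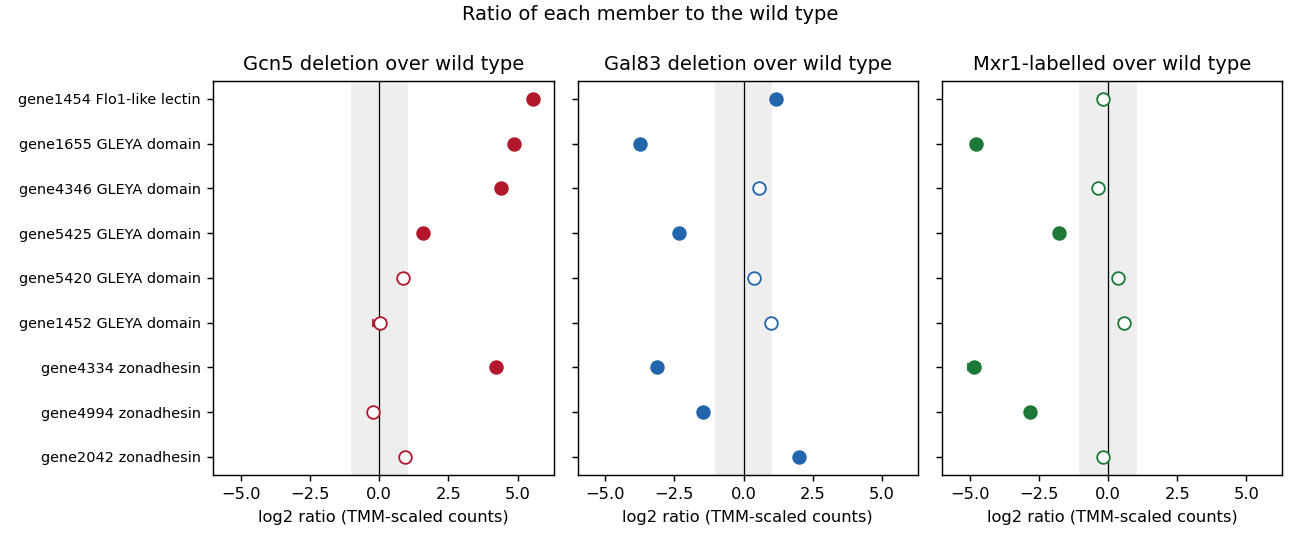
Log2 ratio of each member to the wild type in the 3 mutants, with exact 95% counting intervals as bars; filled points passed the 2-fold size rule and the grey band marks less than 2-fold. In the Gcn5-deletion library all 5 filled points lie to the right, from 1.58 to 5.56, and in the Mxr1-labelled library all 4 lie to the left, from -1.78 to -4.84.

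The 2 remaining zonadhesin rows each behaved in their own way. The row gene4994 had 4610 counts in the Gcn5-deletion library, 2700 in the Gal83-deletion library, 850 in the Mxr1-labelled library and 10684 in the wild type. Its log2 ratio was -0.22 [-0.27 to -0.17] in the Gcn5-deletion library, within 2-fold of the wild type, and it was lower in the others, at -1.45 [-1.51 to -1.39] without Gal83 and -2.81 [-2.92 to -2.71] in the Mxr1-labelled library. It was the only member with its highest level in the wild type, 200.1 CPM.

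The row gene2042 had 3558 counts in the Gcn5-deletion library, 10446 in the Gal83-deletion library, 1840 in the Mxr1-labelled library and 3751 in the wild type. It was highest without Gal83, at 283 CPM against 70.2 in the wild type, a log2 ratio of 2.01 [1.96 to 2.07]. In the Gcn5-deletion library it was at 0.92 [0.85 to 0.98], just inside 2-fold, and in the Mxr1-labelled library at -0.19 [-0.27 to -0.11]. The 3 rows that share the name zonadhesin therefore had 3 different patterns over the strains.

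The GLEYA rows gene5420 and gene1452 had the narrowest spans of the 9, 1.80-fold and 1.99-fold, close to the median of 1.98-fold over all rows. The row gene5420 had 6252 counts in the Gcn5-deletion library, 6200 in the Gal83-deletion library, 5016 in the Mxr1-labelled library and 6917 in the wild type. Its log2 ratios were 0.85 [0.80 to 0.90] in the Gcn5-deletion library, 0.38 [0.33 to 0.43] without Gal83 and 0.37 [0.32 to 0.43] in the Mxr1-labelled library. The row gene1452 had 258 counts in the Gcn5-deletion library, 701 in the Gal83-deletion library, 424 in the Mxr1-labelled library and 509 in the wild type. Its log2 ratio was 0.01 [-0.21 to 0.23] in the Gcn5-deletion library, where the interval includes equality. In the Gal83-deletion library it was at 0.99 [0.83 to 1.16], just under the 2-fold size, and in the Mxr1-labelled library at 0.57 [0.39 to 0.76]. With total counts the Gal83-deletion ratio was 1.13 and passed. The row gene1452 lies 2 rows from gene1454 in the table, with gene1453 between them, so family members lying close together differed widely in the Gcn5-deletion library.

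Over the 9 members the median of the log2 ratios was 1.58 in the Gcn5-deletion library, where that of all rows was -0.01. It was 0.38 in the Gal83-deletion library, against 0.01 over all rows, and -0.37 in the Mxr1-labelled library, against -0.01. The members were spread widely around these medians, and ran from -3.74 for gene1655 to 2.01 for gene2042 in the Gal83-deletion library. When libraries were scaled by total counts, 111 of all rows were called higher and 588 lower without Gcn5, in place of 220 and 273, while the members were again 5 and 0.

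The far end of the Gcn5-deletion comparison held many of the family. Of the 9 rows more than 10-fold higher than in the wild type, 4 were adhesin or flocculin rows (gene1454, gene1655, gene4346 and gene4334). Among the 7 rows more than 10-fold lower in the Gal83-deletion library 1 was a member (gene1655), and among the 28 in the Mxr1-labelled library 2 were (gene1655 and gene4334). The 2 rows more than 10-fold lower without Gcn5 held 0 members. The 15 rows more than 10-fold higher without Gal83 and the 27 in the Mxr1-labelled library also held 0. The pattern of gene1655, gene4334 and gene5425, higher without Gcn5 and lower in both other mutants, was found in 9 rows of 5420, 0.166% of the rows. The 3 comparisons share the wild-type library, and its level enters all 3 ratios. The 6 further rows, named after their values were seen, included an agglutinin-like protein (gene4358), rows named collagen alpha-5(VI) chain (gene5023) and moesin/ezrin/radixin homolog (gene5338), a pyruvate decarboxylase (gene4154), an arginine/alanine aminopeptidase (gene2635) and Smi1 (gene1788).

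Ratios between the mutants do not use a row's wild-type counts, though the scaling factors came from all libraries together. Each equals the difference between the mutants' ratios to the wild type, so it is not a separate observation. In the Gcn5-deletion library over the Gal83-deletion library 6 members were higher and 1 lower, beside 12.7% and 12.8% of all rows. The lower one was gene2042, at -1.10 [-1.15 to -1.04], and the 6 ran from 1.23 for gene4994 (0.76 and not called with total counts) to 8.61 [8.52 to 8.71] for gene1655, the highest of all rows. Over the Mxr1-labelled library 7 members were higher and 0 lower, beside 9.63% and 8.08% of all rows. There gene1655 at 9.65 [9.50 to 9.81], gene4334 at 9.05 [8.85 to 9.27] and gene1454 at 5.75 [5.68 to 5.82] had the 3 highest ratios of the 5420 rows.

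Of the Gal83-deletion over the Mxr1-labelled ratios, 5 members were higher and 0 lower, beside 13.8% and 12.1% of all rows. They were gene2042 at 2.20 [2.13 to 2.27], gene4334 at 1.72 [1.49 to 1.97], gene4994 at 1.36 [1.25 to 1.48], gene1454 at 1.35 [1.27 to 1.43] and gene1655 at 1.03 [0.85 to 1.22]. The row gene5425 went the other way at -0.54 [-0.62 to -0.46], inside 2-fold. With total counts gene4346, at 0.92 here, was also called higher (1.41). The order of the 2 mutants for gene1655 is close to the size limit. For gene5420 the ratio was 0.00 [-0.05 to 0.06].

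Summed over the 9 rows, adhesin and flocculin reads made up 1.71% of all counts in the Gcn5-deletion library, 0.116% in the Gal83-deletion library, 0.0458% in the Mxr1-labelled library and 0.156% in the wild type. The exact binomial 95% intervals did not overlap, but they cover counting error only, not variation between cultures. They ran from 0.0451 to 0.0465% in the Mxr1-labelled library, from 0.115 to 0.118% without Gal83 and from 0.155 to 0.157% in the wild type. After scaling, the sum was 13.8-fold above the wild type without Gcn5, 1.47-fold below it without Gal83 and 2.67-fold below it in the Mxr1-labelled library. These sums weigh long rows more, as reads grow with length.

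Different members held those reads in each strain, by shares of reads that also depend on the members' unknown lengths. In the Gcn5-deletion library gene1655 held 47.7%, gene4334 17.0%, gene1454 15.1% and gene4346 12.4%, together 92.2%. Without Gal83, gene2042 was first with 29.4%, and gene1655 held 2.47%. In the Mxr1-labelled library gene5420, which was within 2-fold of the wild type, was first with 31.6%, followed by gene5425 with 18.1%. In the wild type the reads were spread more evenly, with gene5425 at 23.3%, gene1655 at 22.5%, gene4994 at 14.1% and gene4334 at 12.7%.

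**Figure D3:**
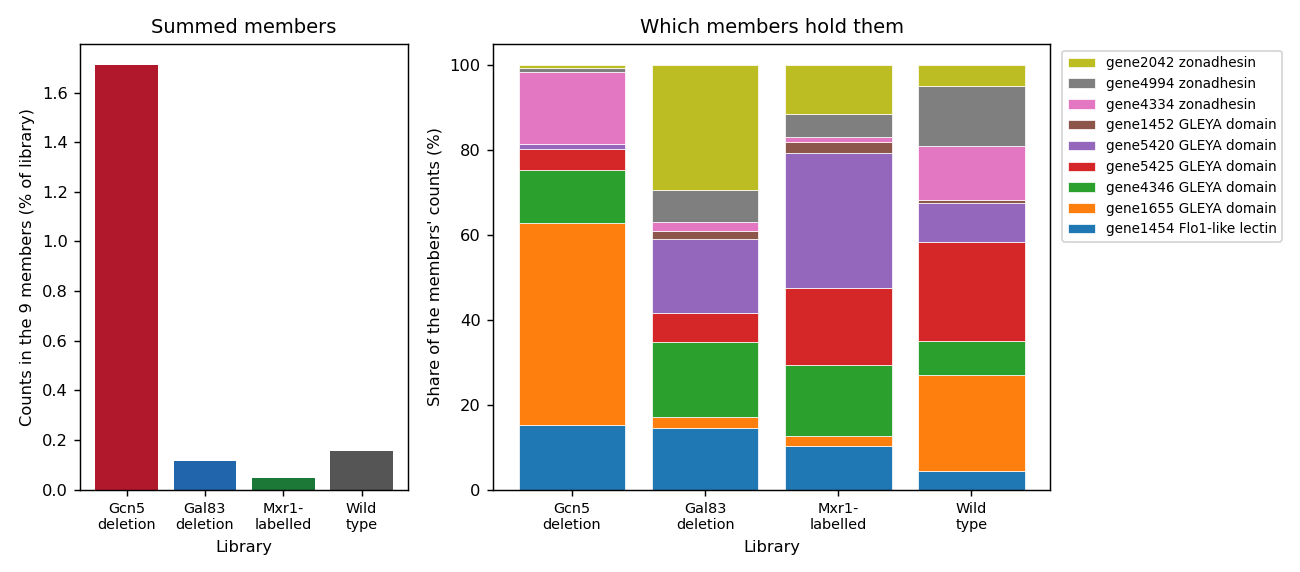
Left, counts in the 9 members as a percent of each library. Right, the share of those counts held by each member, in percent. The Gcn5-deletion library has the tallest bar, 1.71%, with 47.7% of it in gene1655, while the largest share is gene2042 in the Gal83-deletion library, gene5420 in the Mxr1-labelled library and gene5425 in the wild type.

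The likeness of other rows was measured as the root mean square difference of the 3 log2 ratios to the wild type, which share 1 wild-type library. The rows nearest to gene1454 were gene4439 (0.62), described as a silenced ALPHA2 copy at HML, the GLEYA row gene4346 and inositol 1-phosphate synthase (gene1782, 1.11), which makes the precursor of inositol lipids. The counts of gene4439 were low, with 664 in the Gcn5-deletion library, 81 in the Gal83-deletion library, 32 in the Mxr1-labelled library and 57 in the wild type. For gene4346 the nearest were the same gene4439 (0.36), a high-affinity glucose transporter (gene1436, 0.46) and gene1454. HML is a mating-type cassette kept silent in Saccharomyces cerevisiae.

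For gene5425 the nearest rows were gene5023 (0.32), gene5338 (0.38) and the agglutinin-like gene4358 (0.45), all 3 of them among the rows higher in the Gcn5-deletion library and lower in both others. The rows nearest to gene4994 were a subunit of the origin recognition complex, which marks replication starts (gene3332, 0.29), a row with an FMN-dependent fluorescent protein description (gene1293, 0.38) and the G1 cyclin CLN1 (gene1595, 0.39). For gene2042 they were a membrane protein (gene5414, 0.19), a regulator of G-protein signalling (gene4756, 0.20) and the copper transporter CTR2 (gene2195, 0.21). Many rows were that close to gene2042, with 871 within 1 log2 unit, against 190 for gene4994, 40 for gene5425, 6 for gene4346 and 2 for gene1454.

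Several members lie near the end of a locus-tag series, of which the table has 4. Counted in rows from the nearer end, gene1655 and gene5425 were 1 row away, gene5420 was 6, gene4346 12 and gene4334 24 rows away, while the other 4 members were at least 202 rows away. The limit of 24 rows used next equals the distance of gene4334, the farthest of these 5 members. All 5 therefore fall within it by construction. Rows within 24 of an end made up 3.67% of those compared. Of the 194 such rows outside the family, 13.9% were higher and 8.76% lower without Gcn5, against 4.06% and 5.04% of all rows. Without Gal83, 19.1% of the 194 were higher and 9.28% lower, against 11.0% and 10.7% of all rows. In the Mxr1-labelled library 11.3% of the 194 were higher and 18.0% lower, against 7.97% and 10.3% of all rows. The 194 include gene4358, gene4349 and gene5407, whose descriptions relate to adhesion and whose values are given below. Each of these was lower in the Mxr1-labelled library, and gene4358 and gene4349 were higher without Gcn5. Whether a series covers a whole chromosome is not stated in the table. All 3 members that were higher without Gcn5 and lower in both other mutants (gene1655, gene4334 and gene5425) were among the 5 near an end. Of those 5, 4 were higher without Gcn5 and the other, gene5420, was called in none of the comparisons. The row gene1454, with the highest ratio without Gcn5, was 202 rows away.

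The rows beside each member were read for the same direction, 3 before and 3 after in the table. For the 5 members higher in the Gcn5-deletion library, 13 of 25 such rows were called higher and 0 lower. Over all rows 4.06% were higher, and over the 194 rows near an end 13.9%. The 13 stood beside 4 of the 5 members. Those beside gene1655, gene4346 and gene5425 also lie within 24 rows of an end. They were thus counted among the 194 too and are not a separate observation. Next to gene1655 were gene1654 at log2 2.83, gene1653 at 1.22 and gene1656, the last row of its series, at 1.55. Near gene1454 were gene1453 at 2.31, gene1456 at 1.92 and gene1457, named protein recA, at 2.14. Near gene5425 were gene5424 at 2.67, gene5426 at 1.65 and an alcohol dehydrogenase-like row (gene5423) at 1.03. None of these rows was called in its member's direction in another mutant where that member was called. Without Gal83, where gene5425 was lower, gene5426 was at 1.38 and gene5423 at 1.89. The row gene1656 had 449537 counts in the Gcn5-deletion library, 474678 in the Gal83-deletion library, 297533 in the Mxr1-labelled library and 306260 in the wild type. Counts of gene5426 were, in the same order, 380239, 434756, 271383 and 241165, and those of gene1456 were 408065, 185059, 113986 and 214931. Both gene5426 and gene1456 are described only as genomic scaffold rows, so no product is named.

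Near gene4346 were an undescribed row (gene4348) at 2.04, a cell agglutination protein (gene4349) at 1.46, a row with an FAD-binding domain (gene4343) at 1.13 and a methionine permease (gene4344) at 1.02. Beside gene4334 none of the 6 rows was called, with log2 ratios from -0.49 to 0.41. Beside the members called in the Gal83-deletion library, 1 of 31 rows (3.23%) moved in the member's direction and 8 (25.8%) in the opposite one, where 11.0% of all rows were higher and 10.7% lower. Beside the 4 members lower in the Mxr1-labelled library, 0 of 20 rows were lower and 2 higher, where 10.3% of all rows were lower and 7.97% higher. Without Gal83, gene1656 was at 1.17 beside gene1655 at -3.74. The labels do not state whether libraries kept strand, so reads running over from a member into a neighbour were not told apart, and their part was not tested; 0 of the 48 pairs had counts within 5% of each other in all 4 libraries.

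**Figure D4:**
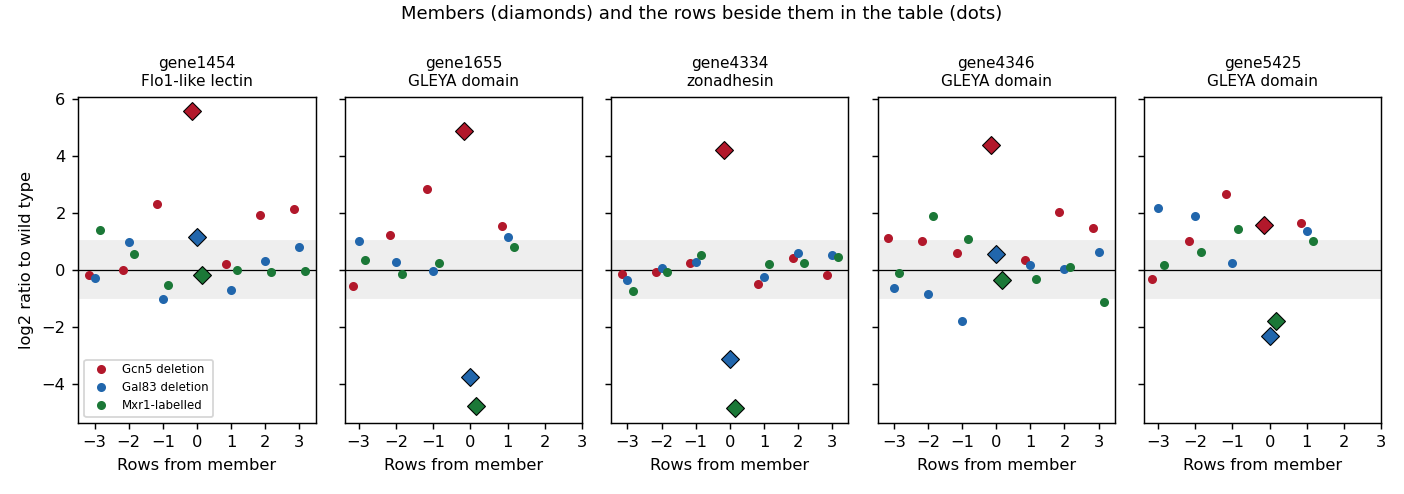
Log2 ratio to the wild type of the 5 members higher in the Gcn5-deletion library (diamonds) and of up to 3 rows on each side in the table (dots; gene1452 is a dot in the first panel), by rows from the member; the grey band marks less than 2-fold. Red dots lie above the band beside gene1454, gene1655, gene4346 and gene5425, and none does beside gene4334.

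A few rows with related descriptions fell outside the naming rule and were added after their values were seen. The agglutinin-like row gene4358, named after the adhesins that join cells, had 2622 counts in the Gcn5-deletion library, 366 in the Gal83-deletion library, 609 in the Mxr1-labelled library and 2483 in the wild type. Its log2 ratios were 1.07 in the Gcn5-deletion library, -2.23 without Gal83 and -1.19 in the Mxr1-labelled library, the same directions as gene5425. Of 2 rows named cell agglutination protein mam3, after an adhesin of fission yeast mating, gene4349 was at 1.46 in the Gcn5-deletion library, 0.63 without Gal83 and -1.12 in the Mxr1-labelled library. The other, gene5407, was at 0.01 without Gcn5, -1.22 without Gal83 and -2.00 in the Mxr1-labelled library. Both rows given a role in cellular adhesion and filamentous growth (gene147 and gene2203) stayed within 2-fold in all 3.

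Other genes were grouped by words in their descriptions, so a list can hold rows of other function, and some rows stand on 2 lists. Rows described as other cell surface proteins were divided without Gcn5. Of these 20, 3 (15%) were called in each direction, against 4.06% higher and 5.04% lower over all rows, with a median log2 ratio of 0.01. Cell surface glycoprotein 1 (gene1948) had 445674 counts in the Gcn5-deletion library, 150684 in the Gal83-deletion library, 17863 in the Mxr1-labelled library and 90322 in the wild type, a log2 ratio of 3.29 in the first. The lower ones included the chitin-to-glucan linking row gene628 (-1.51) and the cell wall protein TIR3 (gene4825, -1.29). Without Gal83, 4 were higher and 3 lower, against 11.0% and 10.7% over all rows, with a median of 0.26. The higher ones were a KRE1-like wall protein (gene4039, 1.61), gene1948 (1.27), a row named halomucin (gene1426, 1.22) and gene1965 (1.10). The lower ones included SCW11 (gene3006) at -2.82 and a glucanase-like wall protein (gene241) at -2.43. In the Mxr1-labelled library 0 were higher and 9 (45%) lower, against 7.97% and 10.3% over all rows, with a median of -0.78, led by TIR3 at -2.68 and another row named cell surface glycoprotein 1 (gene1616) at -2.61.

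The list built on glucan and chitin words, the wall polymers to which adhesins can be linked, had 31 rows, 3 of them also on the list before. Without Gcn5, 12.9% were higher and 6.45% lower, against 4.06% and 5.04% of all rows. Without Gal83, 9.68% were higher and 19.4% lower, against 11.0% and 10.7%, and in the Mxr1-labelled library 6.45% were higher and 25.8% lower, against 7.97% and 10.3%. The words also caught enzymes of other roles: a glycogen debranching enzyme (gene2153), glucosidases of the endoplasmic reticulum (gene547, gene2196 and gene4167) and a glucoamylase (gene4766). Of these, gene4766 was among the rows lower without Gal83 (-1.72) and gene547 among those lower in the Mxr1-labelled library (-1.09). The glucanosyltransferases gene239 and gene238, which lengthen wall glucan, were at 1.99 and 1.96 in the Gcn5-deletion library, and gene4789, described as like concanavalin A lectins and glucanases, was at 1.18 there and -4.06 in the Mxr1-labelled library. The list on the glycosylphosphatidylinositol (GPI) membrane anchor, which many adhesins carry, had 23 rows. They were mostly enzymes that make or attach the anchor, with anchored proteins (gene1478 and gene1965) and a GPI-specific phospholipase D (gene4749) also caught. Without Gcn5, 0 were called, against 4.06% higher and 5.04% lower over all rows. Without Gal83, 2 were higher (8.70%), an anchor synthesis subunit (gene3852, 1.57) and the anchored wall protein gene1965 (1.10), and 1 lower, against 11.0% and 10.7%. In the Mxr1-labelled library 2 (8.70%) were called in each direction, against 7.97% and 10.3%. Of 31 mannosyltransferase rows, which add the sugars that adhesins carry, 1 (3.23%) was higher and 0 lower without Gcn5, near the 4.06% and 5.04% of all rows. Without Gal83, 5 (16.1%) were higher and 1 (3.23%) lower, against 11.0% and 10.7%, and in the Mxr1-labelled library 4 (12.9%) were higher and 2 (6.45%) lower, against 7.97% and 10.3%.

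The lists for the pathways that switch flocculin genes in Saccharomyces cerevisiae were short, and their counts are to be read against the all-row shares: 4.06% higher and 5.04% lower without Gcn5, 11.0% and 10.7% without Gal83, and 7.97% and 10.3% in the Mxr1-labelled library. Most rows of the whole table were thus not called either. None of 18 corepressor and histone deacetylase rows was called without Gcn5, against 2 higher without Gal83 and 3 higher and 1 lower in the Mxr1-labelled library. Of 12 rows of the Swi/Snf and RSC remodelers 1 was lower in the Gcn5-deletion library, a SWI/SNF family ATPase with a repair description (gene4111, -1.13), with 0 calls without Gal83 and 1 lower in the Mxr1-labelled library. The 19 rows matching Mediator, 1 of them a mitochondrial ribosomal protein by its description, had 0 calls without Gcn5. They had 3 higher and 2 lower without Gal83, and 1 in each direction in the Mxr1-labelled library. Of 7 MAP kinase rows 1 was lower without Gcn5, a MAPK-interacting-like row (gene541, -2.65), with 2 higher and 1 lower without Gal83 and 0 calls in the Mxr1-labelled library. Of 10 rows matching cAMP or RAS, 0 were higher and 4 lower without Gcn5. Only 1 of the 4 was described as part of the pathway, a negative RAS-cAMP regulator (gene4924, -1.62). The others were an Atg1-like kinase that the pattern caught through its name (gene2354, -1.23), and 2 rows named pac2, described as independent of cAMP (gene176, -1.21, and gene4078, -1.06). Without Gal83, 1 of the 10 was higher and 0 lower, and in the Mxr1-labelled library 2 were higher and 1 lower.

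Rows of filamentous growth and budding included a transcriptional activator of pseudohyphal growth (gene5061), which had 3399 counts in the Gcn5-deletion library, 1754 in the Gal83-deletion library, 573 in the Mxr1-labelled library and 2340 in the wild type. Its log2 ratio was 1.53 in the Gcn5-deletion library and -1.19 in the Mxr1-labelled library. Of the 17 rows 3 (17.6%) were higher and 0 lower without Gcn5, against 4.06% and 5.04% of all rows. Without Gal83 and in the Mxr1-labelled library alike, 2 (11.8%) were higher and 4 (23.5%) lower, against 11.0% and 10.7% of all rows without Gal83 and 7.97% and 10.3% in the Mxr1-labelled library. Of 16 mating rows 4 (25%) were higher and 0 lower without Gcn5, including the mating-type protein MAT-1 (gene4438, 2.34) and the alpha factor receptor (gene5294, 1.12). The list's words also caught the agglutinin-like gene4358 described above. It is counted among the 4 higher rows (1.07) and among the lower rows of both other mutants. Without Gal83, 4 were again higher and 2 (12.5%) lower, and in the Mxr1-labelled library 3 (18.8%) were called in each direction. Beside an all-row median of -0.01 in the Gcn5-deletion library, the list medians there were 0.29 for mating, 0.08 for the remodelers, 0.00 for the MAP kinases and -0.01 for both the mannosyltransferases and the corepressors. They were -0.05 for the glucan and chitin list and for filamentous growth, -0.09 for Mediator, -0.16 for cAMP and RAS, and -0.17 for the anchor list, all under the 1.58 of the adhesin and flocculin rows.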

How the data were processed

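The authors deposited 1 table of raw read counts per annotated feature, whole numbers that were not normalized, for 4 libraries of 1 strain each. Per the labels' protocols, ribosomal RNA was removed with a bacterial RiboMinus kit. Tools listed, without roles, in the submitters' processing notes are featureCounts 1.6.4, Bowtie2, DESeq2, fastp 0.19.6 and bcl2fastq 2.19.0.316. Which build and annotation were used, and whether libraries kept strand, was not given in the sources used here, per the labels.

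The 5420 of 5427 rows whose mean count over the libraries was 20 or more were kept. TMM factors came from edgeR 4.0.16 in R 4.3.3: 0.874 for the Gcn5-deletion, 1.21 for the Gal83-deletion, 0.862 for the Mxr1-labelled and 1.10 for the wild-type library. Ratios used 0.5 added to each count, with exact Clopper-Pearson 95% intervals of the pair's counts. The labels name no molecular identifiers. The computation was tested on simulated data. Intervals came from scipy 1.17.1 and figures from matplotlib 3.10.9, in Python 3.11.15 with pandas 2.3.3 and numpy 2.4.6. 0 locus tags and 0 protein accessions matched the reference gene table.

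The members, the 11 gene lists (description patterns) and the naming rule were chosen with earlier results of these data known. Named genes were all 9 members, the 3 rows nearest to each member called in at least 2 comparisons, neighbours called in the member's direction, and list members of largest ratio: up to 4 in the Gcn5-deletion and up to 2 in each other library, of which the text gives a part. Alternatives were upper-quartile factors, DESeq2 1.42.0 size factors, total counts, TMM without the 20 highest rows, no filter, a minimum mean of 100, 5 added counts and a 4-fold rule.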

Additional observations from a re-analysis of the deposited data

How the results depend on the processing

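Of 54 member ratios, 34 were called, and none of those 34 changed sign under any of the 8 alternatives. DESeq2 size factors, upper-quartile factors, TMM without the 20 highest rows, no filter, a minimum mean of 100 and 5 added counts changed 0 calls. Total counts changed 4: gene1452 became higher in the Gal83-deletion library (1.13) and lower in the Gcn5-deletion over the Gal83-deletion library (-1.45), where gene4994 was no longer called (0.76), and gene4346 became higher in the Gal83-deletion over the Mxr1-labelled library (1.41). In that Gcn5-over-Gal83 comparison 2 members were thus lower. The 4-fold rule dropped 11 of the 34 calls and left 1 member higher in the Gal83-deletion library, 0 lower in the Gcn5-deletion over the Gal83-deletion and 1 higher in the Gal83-deletion over the Mxr1-labelled library.

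With total counts the median member ratio was 1.25, 0.51 and -0.72 in the Gcn5-deletion, Gal83-deletion and Mxr1-labelled libraries, and 3.37 and 1.52 for Gcn5-over-Gal83 and Gal83-over-Mxr1-labelled. With upper-quartile factors it was 0.31 and -0.48 in the Gal83-deletion and Mxr1-labelled libraries, and 3.88 and 3.45 for the Gcn5-deletion over the Gal83-deletion and Mxr1-labelled libraries. Total counts moved the median of all rows to -0.34, 0.14 and -0.36 in the 3 mutants over the wild type, and to -0.49 and 0.50 for Gcn5-over-Gal83 and Gal83-over-Mxr1-labelled. That scaling divides by totals only, so a few large rows enter it fully. All rows called higher and lower were then 111 and 588 (220 and 273 with TMM) in the Gcn5-deletion library, 231 and 1023 (432 and 559) in the Mxr1-labelled library, 308 and 1466 (691 and 695) for Gcn5-over-Gal83 and 1468 and 262 (750 and 658) for Gal83-over-Mxr1-labelled. The 4-fold rule left 37 and 31 rows in the Gcn5-deletion, 77 and 106 in the Gal83-deletion and 91 and 134 in the Mxr1-labelled library. Between mutants it left 112 and 119, 138 and 92, and 191 and 126 for Gcn5-over-Gal83, Gcn5-over-Mxr1-labelled and Gal83-over-Mxr1-labelled.

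Without the 20 highest rows the members held 2.28%, 0.135%, 0.0589% and 0.195% of counts in the Gcn5-deletion, Gal83-deletion, Mxr1-labelled and wild-type libraries. No paired analysis was possible because each strain was 1 library. Depth limited little, as 186 was the lowest member count.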
